A study of Mus musculus with 24 samples.

Results

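Of 33372 regions built by merging overlapping H3K4me1 peaks of 4 wild-type libraries, 1700 (5.09%) had a peak in every one of the 4 lists, 2 from mouse embryonic stem (ES) cells and 2 from day 6 embryoid bodies (EB). These are the H3K4me1 regions kept from ES to EB, and they are described here by gene, location, H3K4me2 and loss in the Prdm16 KO lists of each stage. The members were chosen from the wild-type H3K4me1 peak calls themselves, so their wild-type H3K4me1 values are a description only. The remaining regions had a peak in 1 list (17685), 2 lists (11413) or 3 lists (2574). Members made up 19.7% of the 8611 regions with a peak in both ES lists and 22.8% of the 7453 with one in both EB lists.

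The study used CUT&RUN, in which a nuclease tethered to an antibody cuts out the bound chromatin for sequencing, with antibodies to PRDM16, H3K4me1 and H3K4me2. The 24 libraries formed 12 groups of 2: each antibody in wild-type ES cells, Prdm16 KO ES cells, wild-type EB and Prdm16 KO EB, all of C57BL/6 background. The ES cells were grown with LIF on Matrigel and the EB without LIF, and the labels name no allele, clone or number of lines behind the KO. Separate cultures behind the 2 libraries of a group are not stated, so a p-value reflects the spread among libraries alone, and that may be technical. An exact permutation test of 2 libraries against 2 cannot give a p below 0.333. Each library had 1 deposited list of peaks with a score of at least 50, in coordinates of mouse build mm10, and its sequencing depth is unknown.

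Histone H3 carries methyl groups on lysine 4 that are added by enzymes of the MLL and SET1 families. Monomethylation (H3K4me1) typically marks enhancers and the flanks of promoters, and dimethylation (H3K4me2) marks both enhancers and promoters, usually closer to the start of transcription. Enhancers of ES cells are commonly rebuilt as the cells leave pluripotency for the germ layers seen in EB, so a region with H3K4me1 at both stages is one where the mark was called before and after that step. PRDM16, a zinc finger protein with a PR domain, is known for its role in brown fat, blood stem cells and the developing nervous system.

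The peak lists differ in ways that touch the results. For H3K4me1 the wild-type ES lists held 15435 and 12746 peaks, the KO ES lists 14945 and 13901, the wild-type EB lists 14082 and 13260, and the KO EB lists 8943 and 5990, so the KO EB lists were the shortest. For H3K4me2 the wild-type ES lists held 24600 and 22615 peaks and the KO ES lists 29138 and 32874. The wild-type EB lists held 14334 and 19246 and the KO EB lists 15205 and 13818, so each ES list was longer than each EB list. The sample titles name 3 library series, and H3K4me2 of KO ES replicate 2 and of wild-type EB replicate 2 belong to another series than the rest of the H3K4me2 libraries. Among 16 housekeeping genes 5 had an H3K4me2 peak within 2500 bp of a start in both wild-type libraries of a stage. Whether marked sites were missed was not tested, and a region without a peak may still carry the mark. Of 8 ES markers, 3 (Esrrb, Zfp42 and Dppa3) had H3K4me1 in both wild-type ES lists and 1 in both EB lists. Of 9 markers of differentiating EB, 0 had H3K4me1 in both wild-type EB lists and 1 (Mixl1) had H3K4me2 there. Of 14 fibroblast or feeder markers 4 had H3K4me1 at each stage, and of 18 mature tissue genes 1 had it at each stage. Of the EB markers 6 had H3K4me2 in both wild-type ES lists, so the peaks at these markers do not follow the labelled stage. No file checks the KO labels, and the part of other cells in the results was not tested. Of the members, 27 had a peak of the PRDM16 antibody in 4 or more of its 8 lists, and results are given with and without them.

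The promoters of 6 members show the range of sequence among regions of each pattern in the KO lists: H3K4me1 called in every KO list (Dysf and Stat6), in both ES KO lists and neither EB KO list (Pfdn4 and Vstm5), in both EB KO lists and neither ES KO list (Prdx2), and in no KO list (Vstm2b). Each is the 250 bases before the annotated start, 5′ to 3′ on the plus strand, on which all 6 genes lie. They are RefSeq sequences of GRCm38.p6, whose coordinates are those of mm10. Capitals mark CG dinucleotides, which are dense in CpG island promoters and sparse elsewhere in the genome.
Dysf chr6:84008348-84008597: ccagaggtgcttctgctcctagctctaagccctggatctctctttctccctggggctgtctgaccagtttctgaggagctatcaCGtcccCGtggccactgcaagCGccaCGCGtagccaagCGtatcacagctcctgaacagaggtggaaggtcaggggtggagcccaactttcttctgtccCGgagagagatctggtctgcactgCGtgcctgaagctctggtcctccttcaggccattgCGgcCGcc
Stat6 chr10:127642736-127642985: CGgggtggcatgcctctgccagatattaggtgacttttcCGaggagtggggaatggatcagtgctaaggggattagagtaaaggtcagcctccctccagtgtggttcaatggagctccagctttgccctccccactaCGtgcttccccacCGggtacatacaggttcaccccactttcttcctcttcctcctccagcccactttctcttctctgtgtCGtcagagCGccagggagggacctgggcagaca
Pfdn4 chr2:170496178-170496427: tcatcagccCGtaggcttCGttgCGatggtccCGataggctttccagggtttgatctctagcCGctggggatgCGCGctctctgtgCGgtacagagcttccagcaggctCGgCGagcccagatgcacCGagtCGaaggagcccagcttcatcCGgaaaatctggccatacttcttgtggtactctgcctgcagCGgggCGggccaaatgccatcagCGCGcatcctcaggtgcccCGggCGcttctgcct
Vstm5 chr9:15238795-15239044: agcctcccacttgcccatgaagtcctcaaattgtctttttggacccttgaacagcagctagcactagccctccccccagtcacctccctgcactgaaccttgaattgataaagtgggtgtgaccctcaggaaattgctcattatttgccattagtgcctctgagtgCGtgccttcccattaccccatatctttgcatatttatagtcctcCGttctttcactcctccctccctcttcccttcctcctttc
Prdx2 chr8:84969372-84969621: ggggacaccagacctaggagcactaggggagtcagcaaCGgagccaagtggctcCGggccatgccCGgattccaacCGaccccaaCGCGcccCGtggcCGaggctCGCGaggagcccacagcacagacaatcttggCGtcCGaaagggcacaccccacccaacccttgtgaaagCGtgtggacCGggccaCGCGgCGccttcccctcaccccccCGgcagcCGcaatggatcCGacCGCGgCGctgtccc
Vstm2b chr7:40899028-40899277: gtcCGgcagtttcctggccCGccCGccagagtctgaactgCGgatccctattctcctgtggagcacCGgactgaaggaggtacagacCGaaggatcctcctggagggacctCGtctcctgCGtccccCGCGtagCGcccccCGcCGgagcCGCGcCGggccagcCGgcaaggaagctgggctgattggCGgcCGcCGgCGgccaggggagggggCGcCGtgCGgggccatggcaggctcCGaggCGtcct
The printed stretches hold from 2 CG dinucleotides at Vstm5 to 26 at Vstm2b. Dysf held 10, Stat6 6, Pfdn4 19 and Prdx2 23. Members in 1 pattern of KO calls thus had promoters of quite different CG content, as Dysf and Stat6 or Pfdn4 and Vstm5 show. Vstm5 was also counted as holding TATAAA, with either strand allowed, and its printed letters hold the reverse complement, TTTATA.

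The kept regions were broad. Their median width was 4090 bp (quartiles 2992 and 5365 bp, range 523 to 13252 bp) and they covered 7.2 Mb. Regions with a peak in both lists of 1 stage and neither list of the other were narrower, with a median of 2770 bp for the 5412 ES-only regions and 2598 bp for the 4678 EB-only regions. A wide region has more room for a peak from each list, so width and membership are linked by the rule. In 1594 members at least 1 base was shared by peaks of all 4 lists, and this shared core had a median of 1388 bp and held 35.6% of the member bases. In the other 106 the peaks only overlapped as a chain. Each list had exactly 1 peak in 1575 members, so few were joins of several peaks.

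The strength of a region was taken from the authors' peak scores, which were used only as ranks within a list. The rank is the percentile of the highest-scoring overlapping peak, with 100 for the top of the list, and the strength of a member is the lowest of its 4 wild-type ranks. The median rank of members was 75 and 71.3 in the wild-type ES lists and 70.4 and 71.1 in the wild-type EB lists. Regions just outside the rule, with a peak in 3 of the 4 lists, had median ranks of 58.8, 58.9, 52.6 and 55.3 and a median width of 3551 bp. Of these, 409 and 666 lacked a peak in ES replicate 1 and 2, and 714 and 785 in EB replicate 1 and 2. Members just inside the rule reached down to a strength of 0.0959 inside Gng2, a G protein gamma subunit gene, so the weakest members were among the lowest peaks of a list.

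Of the 1700 kept regions, 576 (33.9%) lay at a start, meaning within 2500 bp of the start of a protein-coding gene. Over all 33372 regions this background share was 24.1%. A further 517 (30.4%) lay inside a gene beyond that window and 607 (35.7%) outside genes. The start was inside the region in 387 members, up to 2500 bp away in 189, from there to 10000 bp in 172, on to 50000 bp in 501 and over 50000 bp away in 451, with a median of 15132 bp. Most members therefore sat away from any start, and exon and intron were not resolved because the gene table gives no exons. Starts came from the RefSeq promoter table for 17492 of 21887 protein-coding genes, and the other 4395 were placed by both gene ends. With the 17492 genes alone, 25.6% of members lay at a start. The share at a start was 22.8% in ES-only and 17.2% in EB-only regions, and 34.2% in regions of 3 lists. Among regions up to 3000 bp wide, 31.1% of members and 21.9% of other regions lay at a start, and among those over 6000 bp the shares were 32.7% and 34.2%. The members' share at a start was thus much the same in every width band, while that of the other regions was larger in the wider bands.

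Around the starts of members, H3K4me1 lay mainly downstream. At the 435 starts of known strand within 2500 bp of a member, the share with an H3K4me1 peak over the start itself was 52.9% and 55.6% in wild-type ES lists. It was highest 750 bp (62.3%) and 1000 bp (66.2%) downstream, and in ES replicate 1 it was 22.5% at 2000 bp upstream and 41.1% at 2000 bp downstream. In the KO lists, which the rule did not use, the same order held: 43% and 51% at the start against 52.2% and 56.8% at 1000 bp downstream in KO ES cells. In KO EB the share was 17.5% and 17.9% at the start, with a highest value of 21.1% and 20.2%. H3K4me2 peaks covered a larger share of these starts than H3K4me1 peaks did in the wild-type lists of each stage, at 79.5% and 76.8% in wild-type ES cells and 66.9% and 75.2% in wild-type EB. In KO EB, H3K4me2 was over 74.3% and 70.1% of these starts.

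**Figure D1:**
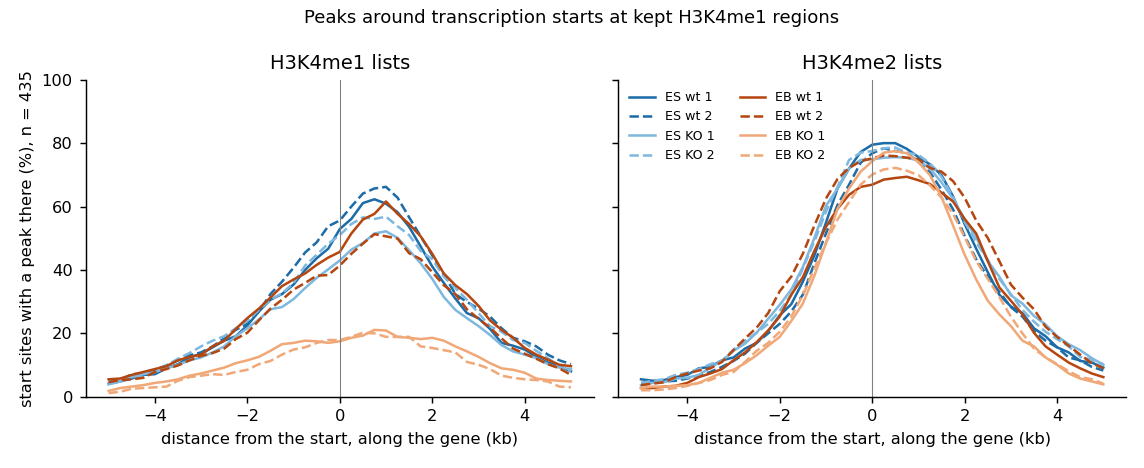
Share of the 435 starts of known strand at kept regions with a peak (percent, y axis) by distance from the start in kb along the gene (x axis), for H3K4me1 (left) and H3K4me2 (right), 1 line per library, coloured by stage and genotype and dashed for replicate 2. H3K4me1 is highest 500 to 1000 bp downstream and reaches only 21.1% and 20.2% in KO EB, while H3K4me2 over the start is between 66.9% and 79.5% in all 8 libraries.

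In Prdm16 KO ES cells most kept regions still had H3K4me1, while in KO EB about as many lacked a peak as had one. KO ES replicates 1 and 2 had a peak at 1445 (85%) and 1410 (82.9%) of the members, and KO EB replicates 1 and 2 at 939 (55.2%) and 759 (44.6%). Over libraries the share was 84% ± 1.46 in KO ES cells and 49.9% ± 7.49 in KO EB (SD, n = 2 each). The KO libraries of the stages did not overlap and differed by 34 percentage points (EB minus ES -34), with a two-sided exact permutation p of 0.333, the smallest that 2 against 2 can give. The share of member bases under a peak was 58.4% and 62.3% for KO ES, against 29.3% and 25.6% for KO EB. Since the rule fixes wild type at 100% of members, KO was not tested against wild type. The KO EB lists were also the shortest, and with all H3K4me1 lists set to 1 length the difference was -20.3. The same libraries had peaks at 34.3% and 33% (KO ES) and 18% and 12.9% (KO EB) of all 33372 regions.

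**Figure D2:**
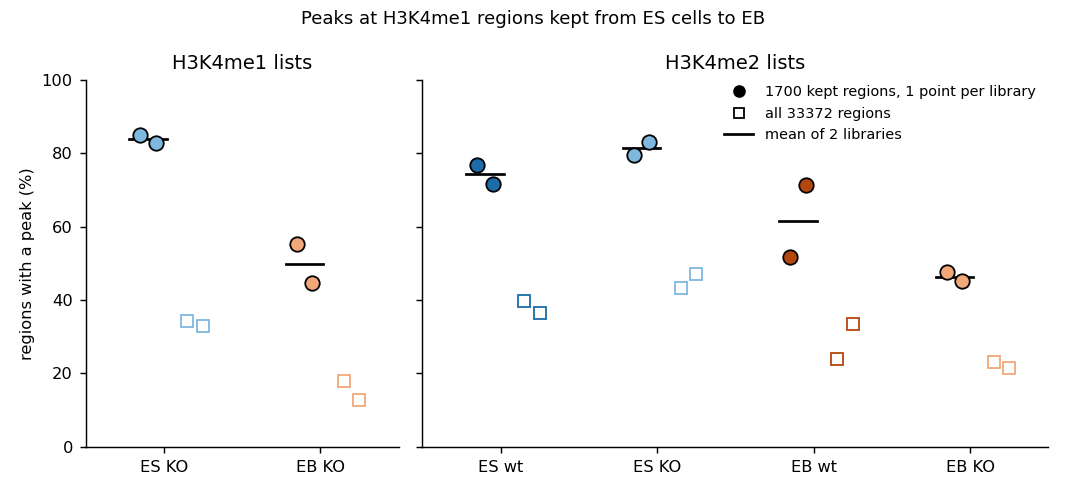
Share of kept regions with a peak (percent, y axis) in each library (filled points) by group (x axis), for H3K4me1 in KO (left) and H3K4me2 in wild type and KO (right), with lines for the mean of 2 libraries and open squares for all 33372 regions. H3K4me1 in KO EB (55.2% and 44.6%) sits below KO ES (85% and 82.9%), and H3K4me2 is lowest in KO EB (47.6% and 45.2%).

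A member is called lost at a stage where neither KO list of that stage had a peak. In ES cells 115 members (6.76%) were lost, where 13.1% of all 8611 regions called in each wild-type ES list were. In EB 592 members (34.8%) were lost, where 47.4% of all 7453 called in each wild-type EB list were. Members were stronger than those regions, and the share lost went down with strength in EB. In 5 equal groups of 340 members from weakest to strongest, 44.7%, 42.9%, 35.3%, 32.9% and 18.2% were lost in KO EB. In KO ES cells the shares were 12.9%, 7.35%, 7.94%, 4.71% and 0.882%. At like rank within the stage the members' share was still the lower of the pair: in the weakest of 5 rank groups 20.1% of members and 29.4% of ES-only regions were lost in KO ES cells, and in the strongest 1.14% and 1.83%. In EB the pairs were 49.2% of members and 68.1% of EB-only regions in the weakest group, and 15.2% and 32.1% in the strongest. Members were also wider, and at like width the EB pairs lay closer among wide regions. Of members and EB-only regions, 43.9% and 63.3% were lost in KO EB up to 3000 bp, and 26.2% and 30.6% over 6000 bp. For members and ES-only regions in KO ES cells the pairs were 7.19% and 17.5%, and 9.89% and 22.9%. Rank and width were not matched together. Regions are not replicates, so no test was made of these shares.

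The counts of lost members depend on which libraries are used, because fewer lists make both rules looser. Without wild-type ES replicate 1 or 2 the number lost in ES was 256 or 362, without KO ES replicate 1 or 2 it was 290 or 255, and without wild-type EB replicate 1 or 2 it was 209 or 201. Without wild-type EB replicate 1 or 2 the number lost in EB was 1035 or 1116, and without KO EB replicate 1 it was 941.

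**Figure D3:**
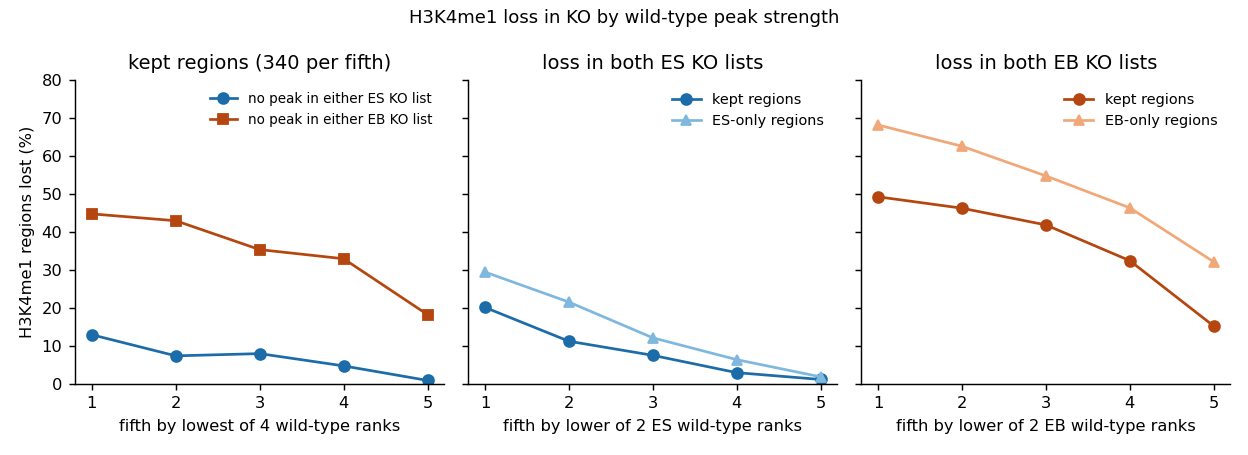
Share of regions with no H3K4me1 peak in either KO list (percent, y axis) in 5 groups by wild-type rank (x axis, weakest to strongest): kept regions by the lowest of 4 ranks (left), and kept against ES-only (middle) or EB-only regions (right) by the lower of the 2 ranks of the stage. In KO EB 49.2% of kept regions in the weakest group and 15.2% in the strongest were lost, below the EB-only regions at 68.1% and 32.1%.

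The patterns of KO calls split the members into classes. H3K4me1 was called in all 4 KO lists at 467 members (27.5%), while over all 33372 regions this share was 2.44%. Of those regions 17685 had a peak in only 1 wild-type list, so the shares are not of like regions. Among members, H3K4me1 was called in both ES KO lists and neither EB KO list at 418 (24.6%). It was called in both EB KO lists and neither ES KO list at 32 (1.88%), and in no KO list at 52 (3.06%). Shares over all regions are not given for these classes. The other 731 (43%) had mixed calls, with 1 of the 2 lists at a stage. Members with a peak in all 4 KO lists had a median strength of 56.4, against 33.1 for those lost in EB KO only. The latter were ranked higher in the ES lists (median 76.9 and 75.8) than in the EB lists (60.2 and 59.7) of wild type. Those lost in ES KO only went the other way, at 39.5 and 36.9 in ES and 68.5 and 70.1 in EB. Each class of stage-specific loss was thus the weaker in wild type at the stage where it was lost. The share at a start hardly differed between the classes, from 31.2% to 36.5%.

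Among the strongest members with H3K4me1 in every KO list was the start of Dysf, the muscle membrane repair protein dysferlin (chr6:84007656-84013569). Its H3K4me1 ranks were 99.8 and 99.2 in wild-type ES, 99.8 and 99.5 in wild-type EB, 99.9 and 99.4 in KO ES and 99.8 and 99.6 in KO EB. It stood near the top of every list. Stat6, a transcription factor of interleukin 4 signalling (chr10:127641710-127644781), had ranks of 96.2 and 97.8, 97.3 and 96.4, 97 and 93.3, and 96.4 and 88.6 in the same order. Tmem178b likewise ranked between 89.2 and 99.6 in all 8 lists. Nxph1, a secreted neurexin ligand (chr6:8948051-8952532), had a peak in every list but ranked 0.341 in KO EB replicate 1 and 91.1 in replicate 2, so its 2 KO EB libraries stood far apart. At Wnt7a, which encodes a Wnt ligand (chr6:91409087-91412093), the wild-type ranks were 99.2, 99.6, 97.1 and 96.4, and the KO ES ranks 98.2 and 87.3. In KO EB replicate 1 had no peak there and replicate 2 ranked 53.5.

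The strongest members at a start lost in KO EB alone also ranked high in wild type. Adcyap1 encodes the neuropeptide PACAP, and the member 1158 bp from its start (chr17:93200326-93204255) ranked 99.1 and 99.6 in wild-type ES, 93.1 and 92.7 in wild-type EB, and 58.7 and 97.3 in KO ES, with no peak in either KO EB list. A region over Pfdn4, a prefoldin chaperone subunit gene, also lay within reach of Cyp24a1, the enzyme that inactivates vitamin D (chr2:170494529-170497736). It ranked 96.3 and 91.7, 97.2 and 91.7, and 76 and 95.1, and was likewise without a peak in KO EB. Vstm5, a membrane protein of the immunoglobulin family (chr9:15237068-15240162), ranked 99.1 and 97.6, 91.6 and 91.8, and 95.2 and 99.6. These 3 regions ranked from 91.6 to 99.6 in every wild-type list and had no peak in either KO EB list. Eef2k (elongation factor 2 kinase), Lrig3 and Npr3 (the natriuretic peptide clearance receptor) shared the pattern, with wild-type ranks of 77.7 to 95.6. All 6 regions had H3K4me2 in both KO EB lists.

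Members lost in KO ES alone had a median strength of 19.6. The strongest at a start among those lost in KO ES alone lay at Prdx2, a peroxiredoxin, and Rnaseh2a, the catalytic subunit of ribonuclease H2 (chr8:84965956-84971134). Its ranks were 61.4 and 51.2 in wild-type ES, 77.1 and 64.8 in wild-type EB, and 92.2 and 77.7 in KO EB, with no KO ES peak, and it had no H3K4me2 peak in any of 8 lists. Ninj1, Bri3, Wnt8a, the Argonaute gene Ago1 and Traf3ip2, an adaptor of interleukin 17 signalling, had the same H3K4me1 pattern. Ago1 ranked 20 and 54.4 in wild-type ES against 93.4 and 84.9 in wild-type EB, and Traf3ip2 27.3 and 10.8 against 88.7 and 89.7. Both thus ranked lower in each wild-type ES list than in either wild-type EB list. Of the 52 members lost in both stages, the strongest at a start was that of Fastkd5, a mitochondrial RNA processing factor, and Ubox5, with wild-type ranks of 69.7, 67.1, 68.3 and 85. The next in order of strength among the 19 of this class at a start were Celf4, Tmem211, Ptar1, Vldlr, a lipoprotein and reelin receptor, and Vstm2b. Vldlr (chr19:27217836-27219231) had wild-type H3K4me1 ranks of 43.4, 76.7, 41.5 and 48.5 and no KO peak, while its H3K4me2 ranks were 94.7 to 99.2 in all 8 lists. Loss of the H3K4me1 call there thus came with an H3K4me2 peak near the top of each list.

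H3K4me2 was called at most of the kept regions in ES cells and at fewer in KO EB. The share of members with an H3K4me2 peak was 76.9% and 71.6% in wild-type ES (74.3% ± 3.74, SD, n = 2), 79.5% and 83.1% in KO ES (81.3% ± 2.54), 51.8% and 71.2% in wild-type EB (61.5% ± 13.7), and 47.6% and 45.2% in KO EB (46.4% ± 1.71). The 2 KO ES libraries lay above the 2 wild-type ES libraries, the 2 KO EB libraries lay below the 2 wild-type EB libraries, and the wild-type EB libraries were far apart. KO minus wild type was 6.97 percentage points in ES and -15.1 in EB, and EB minus ES was -12.8 in wild type and -34.9 in KO. Each of these 4 differences had a two-sided exact permutation p of 0.333 (0.333 also after Benjamini-Hochberg adjustment over the 4), the smallest possible. Over both genotypes EB minus ES was -23.8 percentage points, with a two-sided exact permutation p of 0.0556 over 36 assignments, again the smallest possible. The KO effect in ES minus that in EB was 22.1, with the same exact permutation p of 0.0556. None of these passed 0.05.

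The EB values rest on wild-type EB replicate 2, which is of another library series. Without it the KO minus wild-type difference in EB was -5.44, without replicate 1 it was -24.9, and EB minus ES in wild type was -22.5 and -3.06 in the same order. The KO effect in ES minus that in EB was then 12.4 without wild-type EB replicate 2, and 10.6 without both libraries of the other series (exact permutation p = 0.222). In ES, KO minus wild type was 4.32 without wild-type ES replicate 2, and with equal list lengths it turned to -0.398. The stage differences also shrank with equal list lengths. EB minus ES was then -3.88 in wild type, -13.6 in KO and -8.76 over both genotypes, and KO minus wild type in EB was -10.2. How far list length accounts for the stage difference was not tested. The lists themselves moved in the same way, since over all 33372 regions H3K4me2 was called at 39.7% and 36.4% in wild-type ES, 43.2% and 47% in KO ES, 23.9% and 33.6% in wild-type EB, and 23.1% and 21.5% in KO EB.

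H3K4me2 was found in both wild-type ES lists at 1149 members (67.6%), where 32.4% of all regions had it, and in both wild-type EB lists at 846 (49.8%), where 22.1% had it. It was in all 8 lists at 508 members (29.9%), against 12.6% of all regions, and in none at 85 (5%), against 36.1%. Regions of 3 lists lay closer to the members. Of them 56.5% had H3K4me2 in both wild-type ES lists, 39.4% in both wild-type EB lists, 23.1% in all 8 and 9.13% in none. Of ES-only regions 51.2% had it in both wild-type ES lists, and of EB-only regions 21.7% had it in both wild-type EB lists. All 4 wild-type lists had H3K4me2 at 711 members. It was in both ES and neither EB wild-type list at 190, the reverse at 62, and in no wild-type list at 176. Shares over all regions are not given for these patterns. The wild-type ES lists of H3K4me2 were longer than the EB lists, so the counts are not read as a trait of members. In each of 5 width bands the members' share was above that of the other regions. Among regions up to 3000 bp, 68.4% of members and 27.2% of others had H3K4me2 in both wild-type ES lists, and among those over 6000 bp 68.4% and 43.9% did.

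**Figure D4:**
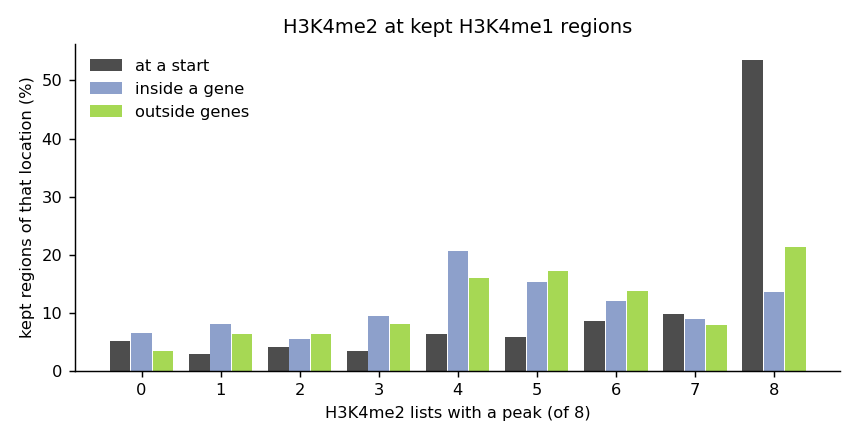
Share of the kept regions of each location (percent, y axis) by the number of H3K4me2 lists, from 0 to 8, with a peak (x axis). Bars are for regions at a start, inside genes and outside genes, and at 8 lists they reach 53.6%, 13.5% and 21.3%. Of the 508 regions with H3K4me2 in all 8 lists 309 lay at a start.

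At starts the H3K4me2 calls were much the same in wild type and KO, whereas away from starts they differed in opposite directions at the 2 stages. At the 576 members at a start the share was 85.2% and 80.7% in wild-type ES, 78.5% and 82.5% in KO ES, 70.5% and 77.6% in wild-type EB and 77.8% and 72.4% in KO EB. KO minus wild type was -2.52 in ES and 1.04 in EB (exact permutation p = 0.667 each). At the 1124 members away from starts it was 72.7% and 67% in wild-type ES, 80% and 83.4% in KO ES, 42.3% and 68% in wild-type EB, and 32.1% and 31.2% in KO EB. The genotypes overlapped at starts in both stages and did not overlap away from starts. KO minus wild type away from starts was 11.8 in ES and -23.4 in EB (exact permutation p = 0.333 each, adjusted 0.417). Members inside genes (11.9 and -24.1) and outside genes (11.8 and -22.9) had nearly the same differences. The genotypes were also apart away from starts at the regions that are not members. The shares there were 28.5% and 25.1% in wild-type ES and 34.4% and 37.7% in KO ES. They were 10.5% and 20.5% in wild-type EB and 8.49% and 7.89% in KO EB, so the lack of overlap is not particular to members.

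The difference between the locations was also taken within each library, so that both shares come from 1 list. The share away from starts minus that at starts was -12.6 and -13.7 in wild-type ES and 1.51 and 0.898 in KO ES, a KO minus wild-type difference of 14.4. In wild-type EB it was -28.2 and -9.63, and in KO EB -45.7 and -41.2, a difference of -24.5. The KO effect on this gap in ES minus that in EB was 38.8 percentage points (two-sided exact permutation p = 0.0556 over 36 assignments, the smallest possible). Without wild-type EB replicate 2 the EB difference was -15.2. Over the alternatives and libraries left out, the value of 38.8 ranged from 27.6 to 48.1 with an exact permutation p of 0.0556 to 0.111. The same gap at the regions that are not members was -39.1 and -40.1 in wild-type ES, -29.1 and -31.3 in KO ES, -50.5 and -47 in wild-type EB and -56.5 and -52.6 in KO EB. It differed between genotypes in the same directions there and by smaller amounts, and whether members and other regions differ in this was not tested.

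**Figure D5:**
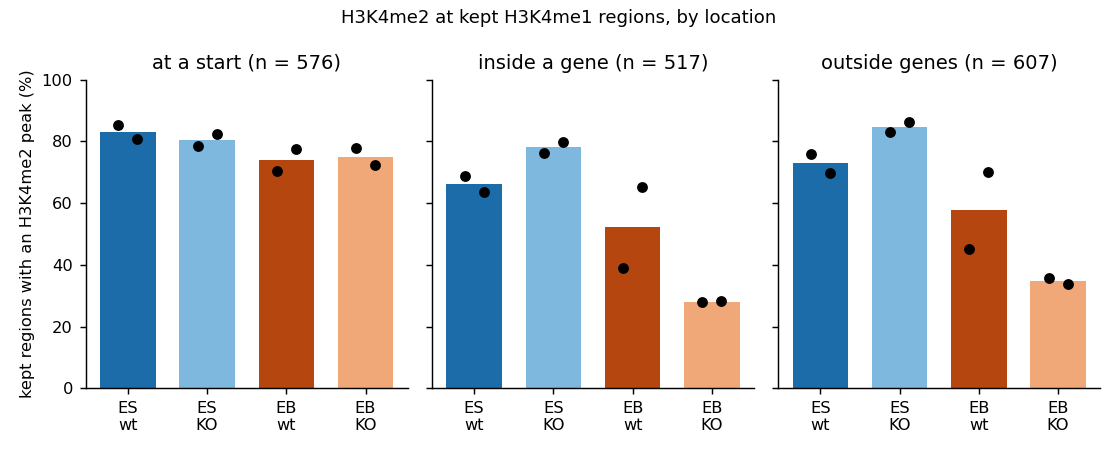
Share of kept regions with an H3K4me2 peak (percent, y axis) by stage and genotype (x axis), for regions at a start, inside a gene and outside genes, with a point per library and a bar for the mean. At starts all 8 libraries lie between 70.5% and 85.2%, while inside genes KO ES (76.4% and 79.9%) is above wild-type ES (68.9% and 63.6%) and KO EB (27.9% and 28.2%) is below wild-type EB (38.9% and 65.4%).

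Counted per region, H3K4me2 was lost (in both wild-type and neither KO list) at 22 of 1149 members in ES (1.91%; 3.78% of all such regions) and at 151 of 846 in EB (17.8%; 15.1% of all). It was gained (in neither wild-type and both KO lists) at 78 of 323 members in ES (24.1%; 8.61% of all) and at 28 of 454 in EB (6.17%; 1.6% of all). The losses in EB lay mostly away from starts, at 137 of 456 members (30%; 33.6% of all), with 14 of 390 at starts (3.59%; 4.67% of all). The gains in ES also lay away from starts, at 75 of 253 members (29.6%; 8.8% of all), with 3 of 70 at starts (4.29%; 7.11% of all). The gains in EB lay at starts, at 22 of 113 members (19.5%; 9.55% of all), with 6 of 341 away (1.76%; 0.643% of all). Losses in ES were few at both, with 10 of 450 at starts (2.22%; 3.76% of all) and 12 of 699 away (1.72%; 3.79% of all). The shares lost in EB were thus close to those of all regions with H3K4me2, while the shares gained were higher among members in ES away from starts and in EB at both locations. Members were wider than regions at large (median 4090 and 1954 bp), and these shares were not matched for width or rank. A gain in ES also required a peak in KO ES replicate 2, the longest H3K4me2 list and one of another library series.

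Named regions show these patterns, and those not among the strongest or listed genes were chosen after their values were seen. The member at Aph1a, a subunit of gamma-secretase, and BC028528 (chr3:95889590-95894015) had H3K4me2 ranks of 55.7 and 48.4 in wild-type ES, 52 and 51.6 in KO ES and 16.2 and 30.6 in wild-type EB, with no peak in KO EB. Its H3K4me1 ranks were 88.8 and 97.1 in KO EB, so the H3K4me2 call was lost while H3K4me1 stayed high. At Nxph1 the H3K4me2 ranks were 98 and 99.1 in wild-type ES, 86.5 and 96.2 in KO ES and 97.7 and 77.6 in KO EB, while neither wild-type EB list had a peak. Kmt2d, itself an H3K4 monomethyltransferase, had the same EB gain (17.5 and 63.8 in KO EB), as did Pim3 and Bcl2l11, the pro-apoptotic protein BIM. The H3K4me2 losses in KO ES included Pim3, Vegfa, a growth factor of blood vessels, Dusp4 and Ago1, and the gains at starts were Ntrk3, a neurotrophin receptor, Tenm4 and Speg.

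Loss of the H3K4me1 and of the H3K4me2 call went together only in part. In EB, among members with H3K4me2 in both wild-type lists, H3K4me2 was lost at 16% of the 343 that kept H3K4me1 in both KO lists, 17.6% of the 233 with it in 1, and 20.4% of the 270 that lost it. In ES the shares were 1.35% of 887, 2.59% of 193 and 7.25% of 69, which are only 12, 5 and 5 members. Shares over all regions are not given for these classes at either stage. Members with H3K4me1 in all 4 KO lists had H3K4me2 in both wild-type EB lists at 58.2%, against 45.9% for those lost in KO EB only and 34.6% for those lost at both stages. The 85 members without an H3K4me2 peak included the starts of Hes7, a Notch target of the segmentation clock (chr11:69118850-69122142), the latrophilin gene Adgrl1, and Adgrg5 with Ccdc102a. Another lay 1468 bp from an end of the calcium channel gene Cacna1a, which is not in the promoter table, so it may be the far end of the gene. Hes7 ranked 91.7 and 74.8 for H3K4me1 in wild-type ES, 99 and 96.9 in wild-type EB and between 80.9 and 95.3 in KO, so a high H3K4me1 rank did not require an H3K4me2 call.

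Peaks of the PRDM16 antibody overlapped 60 members in at least 1 of 8 lists; over all regions the share was 1.1%. By library the counts were 36 and 29 in wild-type ES, 37 and 29 in KO ES, 29 and 31 in wild-type EB, and 30 and 25 in KO EB. Wild type and KO, the background for this antibody, overlapped at both stages and differed by 0.0294 percentage points in ES and -0.147 in EB (KO minus wild type, exact permutation p = 1 and 0.667). Of the 60, 27 had a peak in 4 or more lists, against 0.201% of all regions, and 22 had one in all 8. A PRDM16 peak in the 2 wild-type lists of a stage but in no KO list of it was seen at 1 member in ES and 0 in EB. The 11 strongest members of all were among the 27. Most lay far from any gene start. The nearest start was that of Lrrc4c for a pair of them (2347927 and 2343924 bp away), of Mid1 for another pair (124096 and 113662 bp), of Pex2 (281499 bp), Esp38 (101439 bp), Rpusd4 (36967 bp), Scaf8 (31980 bp) and Ly6c2 (24476 bp). The last 2 lay inside Zc3h7a and 974 bp from a start of Aida or Brox. Of the 27, 26 had H3K4me1 in all 4 KO lists, 22 had H3K4me2 in all 8 lists and 3 lay at a start (Aida and Brox, Gm52481 and Inhbc). Most were thus called with every antibody in both genotypes. Without them 1673 members remained, 115 (6.87%) lost in ES and 592 (35.4%) in EB, and EB KO minus ES KO was -34.6. KO minus wild type for H3K4me2 was then 7.08 in ES and -15.3 in EB, and the KO effect in ES minus that in EB was 22.4.

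A kept region lay at the start of 646 protein-coding genes, 2.95% of all, and over the span of 1068, or 4.88%. Of 422 genes in 22 lists of pathways and cell types, 23 (5.45%) had 1 at a start and 34 (8.06%) over the span. With the genes of the promoter table alone the 23 became 12. The rest, among them Fgfr1, Dusp4, Mapk3, Mfng, Wnt8a, Sall4, Sox7, En2, Thy1 and Kdm6b, were placed by both gene ends, so the end near the member may be the far end of the gene. The genes at a start came most from FGF and ERK signalling (5 of 22) and Notch (3 of 22). None of the 39 Hox genes, 26 Polycomb genes, 16 cardiac genes or 16 housekeeping genes had one at a start. Among the 15 PRDM genes 0 had one at a start, and Prdm1, Prdm8 and Prdm11 had one over their span.

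The FGF and ERK genes differed in H3K4me2. Fgfr1, the receptor (chr8:25512008-25519414), ranked 92.5 and 96 in wild-type ES, 36.9 and 83.8 in wild-type EB and 88.3 to 94.2 in the 4 KO lists for H3K4me1, with no H3K4me2 peak in any list. Etv5, a transcription factor that responds to FGF and is also in the primed epiblast list, likewise had H3K4me1 in all 8 lists, from 21.5 to 93.2, and no H3K4me2 peak. Both were thus called for H3K4me1 alone. Mapk3, the kinase ERK1, ranked 1.07 and 22.3 in wild-type ES, 55.2 and 8.45 in wild-type EB, and 58 in KO EB replicate 1, with no other KO peak. The inhibitor Spred1 had a KO peak in KO ES replicate 1 only. Dusp4, a phosphatase of ERK, had 2 members near the same end of the gene (chr8:34803926-34806740 and chr8:34807684-34816992), and neither had H3K4me2 in any KO or EB list.

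In the Notch pathway, the ligand gene Dll1 ranked 40.2 and 50.8 in wild-type ES and 79 and 63.1 in wild-type EB, with a single KO peak at 18.4 in KO EB replicate 2. Mfng, a glycosyltransferase that modifies Notch, and the receptor gene Notch4 had H3K4me1 in all 4 KO lists. Of the 36 Wnt genes, Tcf7, a transcription factor of the pathway, ranked 82.1 and 87 in wild-type ES, 91.6 and 95.4 in wild-type EB and 68.6 to 92.5 in KO. The ligand gene Wnt8a ranked 58.3 and 23.8, and 25.6 and 77.5, and was lost in KO ES. The members of 1 pathway thus did not share a KO pattern. Of the 30 Nodal, BMP and TGF-beta genes only Tgfb1 had a member at its start, with 1 KO peak.

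Of 23 pluripotency genes, Esrrb and Sall4 had a member at a start. Esrrb, a nuclear receptor of naive pluripotency (chr12:86421398-86424196), ranked 73.9 and 70.2 in wild-type ES, 48.5 and 26.2 in wild-type EB, and 73.2 and 60.7 in KO ES, with no peak in KO EB. Its H3K4me2 ranks were 92.7 to 95.5 in ES and 54.1 to 85.1 in EB, lower in all 4 EB lists. Sall4 had H3K4me1 in 3 of 4 KO lists and no H3K4me2. The endoderm factor Sox7 ranked 93.3 and 83.6 in wild-type ES, 86.2 and 59.5 in wild-type EB, 52.1 in KO ES replicate 2 alone, and 32.4 and 65.1 in KO EB. It had H3K4me2 in all 8 lists.

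Of 23 neuroectoderm genes, the homeobox gene En2 was lost in KO EB and Nes, the intermediate filament nestin, kept 3 of 4 KO peaks. Of 15 brown fat genes, Ebf1 (chr11:44618455-44622907) ranked 93.2 and 89.2 in wild-type ES, 94.4 and 69.8 in wild-type EB, and 84.3 and 92.5 in KO ES, with none in KO EB. Pparg, the master regulator of fat cells (chr6:115361241-115362580), ranked 83.8 and 85.7 in wild-type ES, 13.7 and 36.5 in wild-type EB, 78.2 and 91.4 in KO ES and 44.4 in KO EB replicate 1, and its H3K4me2 ranks were 96.1 to 100 in all 8 lists. Of 14 fibroblast or feeder genes, Vim was lost in KO EB and Thy1 had 3 of 4 KO peaks, each with H3K4me2 in all 8 lists. Among chromatin enzymes, Kmt2d (1 of 17 H3K4 methyltransferase genes) had H3K4me1 in all 4 KO lists and Kdm6b (1 of 18 demethylases), a demethylase of H3K27, in 3, in a region shared with Cyb5d1, Naa38 and Tmem88. Of the 23 genes, Esrrb, En2, Ebf1 and Vim were lost in KO EB only and Wnt8a in KO ES only.

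Promoters over members had about the same median CG content as promoters at large, but fewer of them held little CG. RefSeq windows from 250 bases before to 50 after a start overlapped members in 398 cases (330 genes), and 70.4% of them held at least 10 CG dinucleotides, against 56.8% of all 21263 windows. The medians were 14 and 13, with quartiles of 8 and 23 over members and 4 and 24 over all. The share with at least 10 was 74.6% over ES-only and 50.1% over EB-only regions, and the medians there were 17 and 10. By both measures the members lay between ES-only and EB-only regions. Over members with H3K4me1 in all 4 KO lists the share was 61.8% of 102 windows, and over those lost in KO EB only it was 77.1% of 109. Motifs were counted as exact letters on either strand. GGGCGG, the GC box, was in 53.8% of member windows and 46.2% of all, and CCAAT in 37.7% and 38.2%. TATAAA was in 7.79% and 12.6%, TGANTCA (the AP-1 site) in 4.02% and 6.99%, and CACGTG (the E-box of MYC) in 9.05% and 7.84%. ATGCAAAT (the octamer of POU factors) was in 2.26% and 1.66%, TCAAGGTCA (the ESRRB site) in 0.251% and 0.334%, and GGGTGTGG (bound by KLF factors) in 3.27% and 3.63%. AGATAA (the GATA site) was in 7.79% and 9.65%, CTTTGT in 13.6% and 16.8%, and ACAATG in 9.3% and 11%, the last 2 being cores of SOX and TCF sites. The letters are those of promoters only, since the sequence of members away from starts was not analysed here.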

How the data were processed

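CUT&RUN peak lists of 24 libraries in 12 groups of 2 were analysed, and titles gave the group and replicate number. The authors deposited 1 list of peaks per library with a score of at least 50, with no unit stated for the score, which served only to rank peaks inside their list. Per the submitters' processing notes, MACS2, HOMER 4.10, Bowtie2, deepTools, bedtools and SAMtools 1.5 were used with build mm10. The use of a control library and the handling of duplicate reads are likewise not given in the sources used, and without read totals no counting interval was computed.

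Peaks on the 21 chromosomes 1 to 19, X and Y were merged where they overlapped over the 4 wild-type H3K4me1 lists, and an overlap of 1 bp with a peak sufficed to assign a region to a list. Gene starts came from RefSeq tables of GRCm38.p6. Shares per library were compared by two-sided exact permutation over libraries, and regions and genes were only described. Named regions are the listed genes with a member at a start, the 10 strongest at a start, the 6 strongest at a start in each class of KO calls, the 5 widest, the 5 strongest at a start without H3K4me2, and those with PRDM16 peaks in 4 or more lists. Some of these are not reported here. The members and the gene lists were chosen with earlier results of these data known. Alternatives were higher-scoring peaks, a score of at least 100, equal list lengths, merging within 1000 bp, 50% coverage, bases covered, other start windows, each library left out, the library series and the replicate number as a block. Others, such as the promoter table alone, the gene span, bases shared by lists, and leaving out the regions with PRDM16 antibody peaks in 4 or more lists, were added after seeing the data. The scripts, in Python 3.11.15 with numpy 2.4.6 and pandas 2.3.3, were tested on simulated peaks.

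Same-numbered libraries did not deviate together at the members (correlations of -0.07 to 0.04), so the numbers were not taken to pair them.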

Additional observations from a re-analysis of the deposited data

Results flagged for a closer look

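The difference in H3K4me2 between KO and wild type had opposite signs at the 2 stages with all peaks and libraries. At the kept regions the KO effect in ES minus that in EB was 22.1 percentage points, tested by exact permutation of genotype within stage (p = 0.0556, the smallest that 36 assignments can give), with KO higher in ES and lower in EB in each pair of libraries compared across genotypes. It was 12.4 without wild-type EB replicate 2, 10.6 (exact permutation p = 0.222) without both libraries of the other series, and 9.76 (exact permutation p = 0.222) with equal list lengths.

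The gap between the H3K4me2 share away from starts and at starts also differed in its KO effect between stages. That difference was 38.8 percentage points (exact permutation p = 0.0556, again the smallest possible), with the gap close to 0 in KO ES (1.51 and 0.898) and at its widest in KO EB (-45.7 and -41.2). Wild-type EB replicate 2, of another library series, lies in this comparison, and without both libraries of the other series the value was 29.8 (exact permutation p = 0.111). The part of the library series was not tested further. Each item was flagged because both KO libraries lay above both wild-type libraries in ES and below both in EB. That order by itself gives the smallest p, so the p adds nothing to the flag. Neither difference between stages was among the tests planned beforehand.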

How the results depend on the processing

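Over 31 other settings, 243 of 273 result values were counted as unchanged, 29 as moved and 1 as reversed. A tested value could change only by its sign, since no exact permutation test here could pass the cut-off under any setting. Counts and shares were judged by a range that is not given here, so the tally is a description only. The number of kept regions was 616 with the higher-scoring 50% of each list, 646 with 50% of the region covered, 502 with equal list lengths and 252 with a score of at least 100. In the same order 58, 63, 45 and 21 were lost in KO ES and 234, 312, 136 and 111 in KO EB, and members with a PRDM16 antibody peak numbered 30 and 19 in the first 2 settings. The share at a start was 36.2% with 50% covered, 30.8% and 44% with windows of 1000 and 10000 bp, and 25.6% with the promoter table alone. Listed genes with a member at a start numbered 37 with 10000 bp and 12 with the promoter table alone. With equal list lengths KO minus wild type for H3K4me2 in ES turned to -0.398, and the KO effect in ES minus that in EB was 9.76 (exact permutation p = 0.222); the cause was not tested.

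With each library left out in turn, kept regions numbered 2103 to 2476, those lost in ES 115 to 362 and in EB 592 to 1116. EB KO minus ES KO for H3K4me1 was -41.2 to -24.6. For H3K4me2, KO minus wild type was 4.32 to 9.62 in ES and -24.9 to -5.44 in EB. With the replicate number as a block the differences were the same (-34, 6.97 and -15.1). The exact permutation p was then 0.5, the smallest possible, so no call could change.

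Depth is unknown, so its part in a missing peak was not tested. With 2 libraries per group no KO difference could pass 0.05, and of 49 named regions at a start 22 were still members with equal list lengths.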

Other observations

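The kept regions were spread over all chromosomes. Chromosome 6 held 161 of them (9.47%, against 7.49% of all regions) and chromosome 3 held 104 (6.12%, against 4.95%), while chromosome 1 held 88 (5.18%, against 6.7%) and the X chromosome 10 (0.588%, against 1.19%). Neighbouring members lay a median of 539550 bp apart, and 170 of 1679 neighbouring pairs lay within 50000 bp of each other.

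Some long genes held several. Etl4 had 4 over its span, and 21 genes had 3 or more. All 3 members over Atxn7l1, a paralog of a SAGA subunit gene, and all 3 over Trim2, a neuronal ubiquitin ligase gene, had no H3K4me1 peak in either KO EB list. All 3 over Frmd4a, a cell polarity scaffold gene, had H3K4me1 in all 4 KO lists. These genes were chosen after their values were seen, and members of a gene are not independent. Among the widest members, some lay inside Zfp395 (13252 bp), near H1f10, a linker histone gene (10037 bp), at Igdcc4 (10009 bp), and inside Rad51b, a recombination gene (9567 bp).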
